A study of Mus musculus with 4 samples.

Results

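Among the chromatin regions that were called accessible in stem cells of the mouse small intestine and not in those of the large intestine, a small set lies at the ends of protein-coding genes, and that set is described here. It holds 664 regions at 684 genes, out of 119965 regions over the whole series and 117196 on chromosomes 1 to 19. Overlapping peaks of the 4 libraries, sharing 1 bp or more, were joined to regions. A region was kept when both small-intestinal libraries and neither large-intestinal library had a peak in it, and when any part of it lay within 1 kb of the annotated start or end of a protein-coding gene on chromosomes 1 to 19. The calls themselves chose these regions, so their presence in one tissue and their absence in the other is a description and not a finding. Such regions are termed SISC-only gene-end regions below, and a region called in both large-intestinal libraries alone is termed LISC-only.

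The assay was ATAC-seq, in which the Tn5 transposase cuts open DNA and tags it for sequencing. The small-intestinal stem cells (SISC, 2 libraries) were sorted from crypts as Lgr5-EGFP+ and CD24-, and the large-intestinal stem cells (LISC, 2 libraries) as Lgr5-EGFP+ with no CD24 gate named. All mice carried the Lgr5-EGFP-IRES-creERT2 allele, which places EGFP under the control of the Lgr5 locus, and were 6 to 12 weeks old, and each library took 50000 cells and 10 PCR cycles. The SISC tissue came from the stretches next to the pylorus and next to the cecum, whereas the LISC tissue ran from cecum to rectum, so tissue and sorting gate cannot be told apart. Whether replicates were taken from different animals is not stated, and their spread may be technical. Y-chromosome peaks were called in replicate 1 (6 in SISC, 8 in LISC) and in neither replicate 2.

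Lgr5 marks the dividing stem cells at the crypt base, which replace the epithelium of both intestines. The small intestine absorbs lipids, amino acids and vitamins, is exposed to bile and ingested compounds, and holds Paneth cells, which the mouse colon lacks. A gene becomes accessible at its start when nucleosomes are moved from the promoter, and CpG-rich promoters are often open in many cell types, while CpG-poor promoters are more often open in few.

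The promoters of 8 genes are printed first, as chosen examples, because each carries a SISC-only region over or beside its start. The sequences are the 250 bases before the annotated start, from RefSeq on GRCm38.p6, which has the coordinates of mm10, and are written 5′ to 3′ on the strand of the gene. Capitals mark matches on either strand to TATAAA (the core promoter motif known as the TATA box), AGATAA (letters read by the GATA factors), CAAAGTCCA (read by HNF4), TTAATNATT (read by HNF1) and TTTATNG (read by the caudal factors). The reverse complement of TTTATNG shares letters with TATAAA, so that a single run can match both, as CTATAAA does. A match describes the letters and is not evidence that a factor binds there. The first 2, Olfm4 and Lgals2, have the regions over a start with the highest mean percentiles of −log10 q; the next 5 are genes of absorption, detoxification, defence and the mature epithelium; and Tbx20 is a CpG-rich promoter set beside these CpG-poor ones.
Olfm4 (chr14:80000052-80000301, plus strand): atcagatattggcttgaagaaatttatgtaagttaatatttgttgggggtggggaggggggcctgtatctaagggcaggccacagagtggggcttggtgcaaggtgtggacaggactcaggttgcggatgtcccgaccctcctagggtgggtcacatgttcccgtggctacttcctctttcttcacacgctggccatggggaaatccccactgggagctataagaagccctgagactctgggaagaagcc
Lgals2 (chr15:78855530-78855779, minus strand): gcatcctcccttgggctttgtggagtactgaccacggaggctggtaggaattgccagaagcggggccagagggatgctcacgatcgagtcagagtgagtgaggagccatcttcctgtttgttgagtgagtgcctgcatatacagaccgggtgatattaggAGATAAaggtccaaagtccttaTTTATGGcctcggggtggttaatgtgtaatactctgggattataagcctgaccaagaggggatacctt
Fabp1 (chr6:71199629-71199878, plus strand): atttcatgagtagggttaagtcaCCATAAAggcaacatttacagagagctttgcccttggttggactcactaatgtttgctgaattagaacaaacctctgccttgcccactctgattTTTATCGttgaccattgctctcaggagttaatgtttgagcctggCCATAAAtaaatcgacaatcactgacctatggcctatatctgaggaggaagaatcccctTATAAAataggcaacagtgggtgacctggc
Rbp2 (chr9:98490287-98490536, plus strand): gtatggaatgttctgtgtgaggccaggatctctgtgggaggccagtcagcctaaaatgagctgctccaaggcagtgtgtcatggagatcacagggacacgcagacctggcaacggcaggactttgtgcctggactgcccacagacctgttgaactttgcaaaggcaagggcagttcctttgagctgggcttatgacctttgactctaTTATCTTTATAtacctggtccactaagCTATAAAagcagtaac
Ugt2a3 (chr5:87337196-87337445, minus strand): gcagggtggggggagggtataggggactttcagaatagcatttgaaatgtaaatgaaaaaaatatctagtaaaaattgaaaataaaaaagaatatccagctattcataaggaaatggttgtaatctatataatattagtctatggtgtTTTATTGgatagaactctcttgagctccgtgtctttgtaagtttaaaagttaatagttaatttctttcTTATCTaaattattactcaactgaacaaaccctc
Reg3b (chr6:78370635-78370884, plus strand): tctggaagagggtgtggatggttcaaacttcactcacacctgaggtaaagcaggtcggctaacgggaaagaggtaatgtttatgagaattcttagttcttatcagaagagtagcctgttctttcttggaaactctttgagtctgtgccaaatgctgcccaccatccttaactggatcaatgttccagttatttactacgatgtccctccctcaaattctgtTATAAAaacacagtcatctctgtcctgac
Krt20 (chr11:99438154-99438403, minus strand): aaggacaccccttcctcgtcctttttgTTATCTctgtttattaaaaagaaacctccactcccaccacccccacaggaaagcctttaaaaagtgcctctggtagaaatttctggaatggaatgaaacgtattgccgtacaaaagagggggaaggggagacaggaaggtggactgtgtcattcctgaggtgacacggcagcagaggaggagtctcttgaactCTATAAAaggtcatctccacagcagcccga
Tbx20 (chr9:24774304-24774553, minus strand): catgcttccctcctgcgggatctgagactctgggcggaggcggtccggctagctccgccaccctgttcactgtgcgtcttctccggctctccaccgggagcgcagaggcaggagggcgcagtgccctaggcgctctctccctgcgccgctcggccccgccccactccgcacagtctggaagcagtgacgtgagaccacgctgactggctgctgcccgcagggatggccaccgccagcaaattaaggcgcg

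The capitals show how unlike these promoters are. Reg3b, Fabp1 and Krt20 carry a TATA box between 40 and 20 bases before the start, and in Krt20 the same run also matches the caudal motif. In Rbp2 a GATA match runs into a TATA match, and a run nearer to the start matches both the TATA box and the caudal motif. Ugt2a3 and Lgals2 have a GATA and a caudal match and no TATA box of these letters. Olfm4 and Tbx20 hold none of the 5 motifs. The CpG ratio, which is the number of CpG dinucleotides over the number that the C and G content would give, was between 0.198 (Fabp1) and 0.320 (Krt20) in the 300 bases around 7 of these starts, and was 0.745 at Tbx20. These examples do not give the frequencies over all SISC-only starts. Of the 177 start windows described below, 5.65% held TATAAA between 40 and 20 bases before the start. A CpG ratio of 0.6 or more was found in 35.0% of them.

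The 4 peak lists held 83443 and 93220 peaks in SISC replicates 1 and 2, and 91313 and 88739 in LISC replicates 1 and 2. Read counts were not used, so depth is unknown, and a region with no LISC peak was not called there rather than shown to be closed. Over chromosomes 1 to 19, SISC-only regions made up 7.97% of all regions and LISC-only regions 10.2%. Of the 9337 SISC-only regions, 7.11% lay at a gene end, against 3.73% of the 11919 LISC-only regions and 24.3% of those called in all 4 libraries. Genes with a SISC-only gene-end region made up 3.31% of 20665 genes, and genes with a LISC-only one 2.21%. These shares are the background for every count of genes given below. Each peak has a −log10 q, the authors' measure of its significance against the local background. It is not the height over background, which the fold enrichment gives. Unless fold enrichment is named, the values quoted for a gene are the −log10 q of its region in SISC replicates 1 and 2.

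The gene lists cover stem cells, absorption, detoxification, defence, the other epithelial lineages and contaminating cell types. Of 369 distinct genes in the 21 lists, 32 (8.67%) had a SISC-only gene-end region and 16 (4.34%) had a LISC-only one. The first count was 49 without SISC replicate 1, a setting in which 1585 of the 20665 genes, and not 684, had a SISC-only gene-end region. The 3.31% over all genes therefore does not apply to that count. The direction of no list was tested, since the calls chose the genes.

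The region with the highest mean percentile of −log10 q over both SISC lists was that of a stem cell gene. Olfm4, a secreted glycoprotein used as a marker of small-intestinal crypt base stem cells, had a region of 1285 bp over its start (chr14:79999824-80001108), with a −log10 q of 231 and 156 and a fold enrichment of 9.0 and 7.12. In replicate 2 alone the regions at 2610507B11Rik and Rskr (166) and at Pate6 (162) had higher values, and by fold enrichment Abcb1b (15.5 and 14.4) and others were higher. The nearest LISC peak to that of Olfm4 was 12571 bp away. Olfm4 had 2 further SISC-only regions past its other end, with −log10 q of 31.7 and 21.7 in the stronger and 18.5 and 5.26 in the weaker. Counting every region nearer to Olfm4 than to any other gene, 14 were SISC-only, none was LISC-only and 2 were called in all 4 libraries, so its SISC-only calls were not limited to the start. Among the 25 stem cell and Wnt genes, 4 had a SISC-only gene-end region and none had a LISC-only one. In the other three genes the region was an addition to gene ends that were also called in LISC: Msi1, an RNA-binding protein of crypt progenitors (19.4 and 38.8), Rgmb, a co-receptor for bone morphogenetic proteins (16.9 and 18.1), and Cd44, a hyaluronan receptor and Wnt target (6.19 and 15.3). Cd44's region lay 69 bp from a LISC peak. Of the 25 genes, 23 had a gene-end region called in all 4 libraries.

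Gata4, a transcription factor that keeps the jejunal character of the small intestine, had the only SISC-only gene-end region among 12 proximal factors. It was 1711 bp wide (chr14:63270450-63272160), with −log10 q of 28.9 and 58.6, and no LISC region lay at either end of the gene. Gata4 was the nearest gene to 9 SISC-only regions, the one at its end included, to 8 regions called in all 4 libraries and to no LISC-only region. In the same list Pdx1, a factor of the duodenum and pancreas, had a LISC-only gene-end region. None of the 19 large-intestinal genes had a SISC-only gene-end region, and 6 had a LISC-only one.

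Lipid and vitamin A uptake was represented by 3 of 26 genes, none of which had a LISC region at either end. Apoa4, an apolipoprotein of chylomicrons, had a region of 1275 bp over its start (chr9:46240450-46241724), with −log10 q of 29.6 and 25.4. Fabp1, which binds fatty acids in the enterocyte cytosol, had a region of 622 bp over its start (chr6:71199528-71200149), with values of 13.3 and 16.1. The region of Rbp2, the cellular retinol-binding protein of enterocytes, ended 2 bp before the start (chr9:98490131-98490535), with values of 23.7 and 13.8. The regions of these genes were of middling to low rank within their lists, between the percentiles 23.1 and 44.7, where 100 is the strongest peak. No gene of the lipid list had a LISC-only gene-end region, and 19 of 26 had one called in all 4 libraries.

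Other absorptive functions had 1 gene each or none. Slc6a19, the neutral amino acid transporter of the brush border, had a region over its start (11.04 and 11.6) and a second inside its other end (14.0 and 45.8), and no LISC region at either end. It was the only one of 15 transport genes. Espn, an actin bundler of microvilli, had a region 199 bp past its end (21.5 and 30.5), and Slc30a10, a manganese exporter, one 610 bp past its end (15.5 and 14.7); both genes also had LISC regions at a gene end. None of 15 brush border hydrolases and none of 9 bile acid genes had a SISC-only gene-end region, and 13 of the 15 hydrolases had a gene end that was called in all 4 libraries. Ace among the hydrolases and Nr0b2 among the bile acid genes had a LISC-only one, as did Amn among the 20 mineral and vitamin genes.

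Detoxification gave the most genes of any list, 5 of 37, beside 2 with a LISC-only region. It was also the longest list. Its share of 13.5% was below those of the stem and Wnt (16.0%), Paneth cell (15.4%) and neuron (14.3%) lists. Cyp3a11, a major drug-metabolising cytochrome P450, had a region 953 bp before its start (chr5:145880807-145881661), with −log10 q of 162 and 80.9 and a fold enrichment of 14.7 and 10.3, and the nearest LISC peak was 29616 bp away. Ugt2a3, a glucuronosyltransferase, had a region of 1086 bp over its start (chr5:87336485-87337570), with values of 63.9 and 66.7. At Cyp2b10, a P450 that xenobiotics induce, the region was among the weaker ones, with 4.59 and 8.38. None of these 3 had a LISC region at a gene end. Ces2a, a carboxylesterase, had 2 regions at its end, with 17.4 and 29.4 in the stronger. Cyp27a1, the sterol 27-hydroxylase, had a region 543 bp from a LISC peak (13.8 and 13.4). Abcb1b, one of the mouse P-glycoprotein pumps that export drugs, stood in no list but had one of the 12 regions with the highest mean percentiles, 69 bp past its end (125 and 121). A LISC region also lay at an end of Abcb1b.

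The 3 antimicrobial genes with a region all belong to the Reg cluster on chromosome 6. Reg3b, a bactericidal lectin, had a region over its start (chr6:78370529-78370991), with 20.1 and 29.3. That of Reg1 also covered the start (chr6:78425413-78426045), with 24.3 and 22.8, and lay 62610 bp from the nearest LISC peak. Reg3a had a region 938 bp past its end (51.4 and 31.9). None of them had a LISC region at a gene end, and 10 of the 27 genes of the list had no region in any library. In the same list Tlr4 had a LISC-only gene-end region.

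Lists of the specialised lineages held 1 or 2 genes with a region each. The Paneth cell list held Habp2, a serine protease, with a region over its start of 42.8 and 52.9 and a second one inside the gene, and Guca2b, the hormone uroguanylin, with 14.7 and 20.3. Agr2, a disulfide isomerase of goblet cells, had a region past its end (34.7 and 19.8), Chga, the chromogranin of enteroendocrine cells, one over its end (13.7 and 12.3), and Gfi1b, a transcription factor of tuft cells, one over its start (9.24 and 21.3). Each of these 5 genes also had a LISC region at a gene end, and none of the 4 lists had a LISC-only region. Cldn7, a tight junction protein, and Krt20, a keratin of mature epithelium, had regions over their starts of 17.6 and 34.9, and of 13.4 and 18.2, with LISC peaks 197 and 872 bp away.

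Mcm2, a subunit of the replicative helicase, had 6.80 and 10.8, Tyms, thymidylate synthase, 15.5 and 49.9, and Cps1, the first enzyme of the urea cycle, 10.0 and 4.43. Mcm5 in the proliferation list and Glul in the urea cycle and glutamine list had a LISC-only gene-end region. Single markers of other cell types appeared as well: Itgam, an integrin of myeloid cells (9.90 and 19.02), Sox10, a factor of enteric glia (5.03 and 6.93), and Nefl, a neurofilament (14.8 and 22.8). Over the 19 immune genes, 6 and 6 had a gene-end region in SISC replicates 1 and 2, and 5 and 4 in LISC replicates 1 and 2, and 13 had none in any library. Of 18 stromal, endothelial, muscle and glial genes, 9 and 12 had one in the SISC replicates, and 9 and 6 in the LISC replicates. The part of such cells in these results was not tested. The general epithelial list had a gene-end region in each library at all 24 of its genes. Beside the SISC-only regions of Cldn7 and Krt20, Tjp1 of that list had a LISC-only one.

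**Figure D1:**
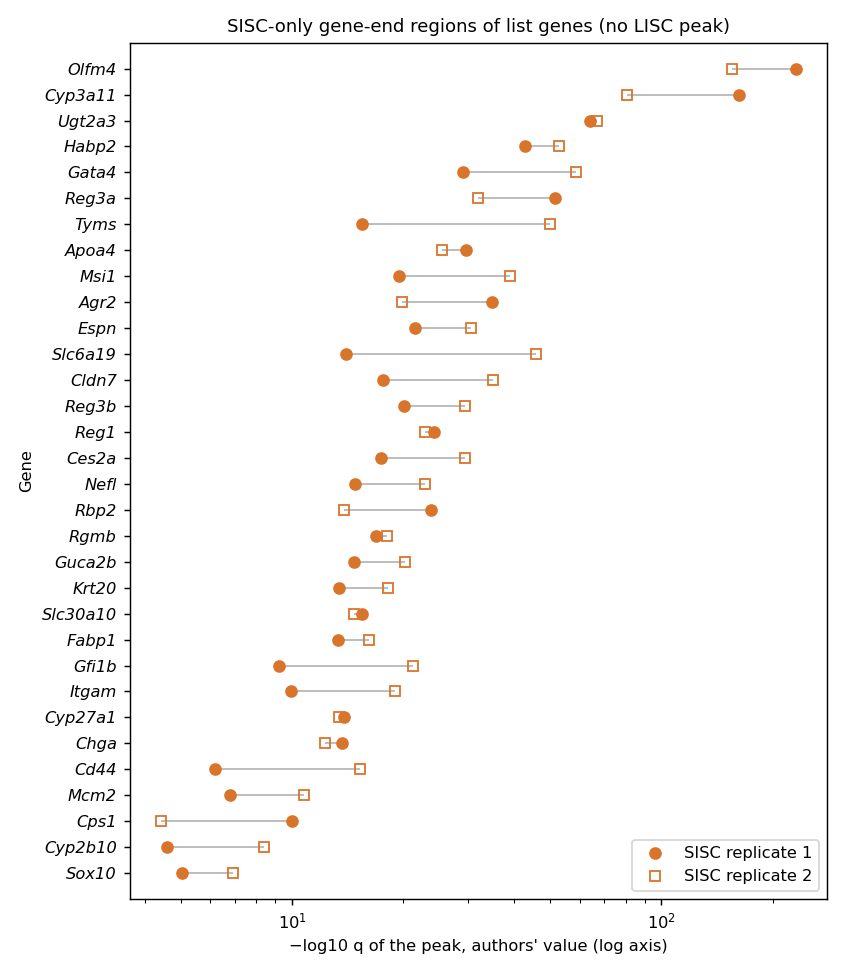
The −log10 q of the peak, as the authors gave it, in SISC replicate 1 (filled circles) and SISC replicate 2 (open squares) for the strongest SISC-only gene-end region of each of 32 list genes, on a log axis. Olfm4 stands apart at 231 and 156, followed by Cyp3a11 at 162 and 80.9, and no other of these genes is above the 66.7 of Ugt2a3.

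The plot of these values by gene shows that the libraries often differed for a single gene. Tyms, Slc6a19 and Cd44 were stronger in replicate 2, and Cyp3a11, Reg3a and Agr2 in replicate 1. Over the 664 regions the within-list percentiles of both SISC libraries had a Pearson correlation of 0.722, given as a description across regions that share their libraries.

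**Figure D2:**
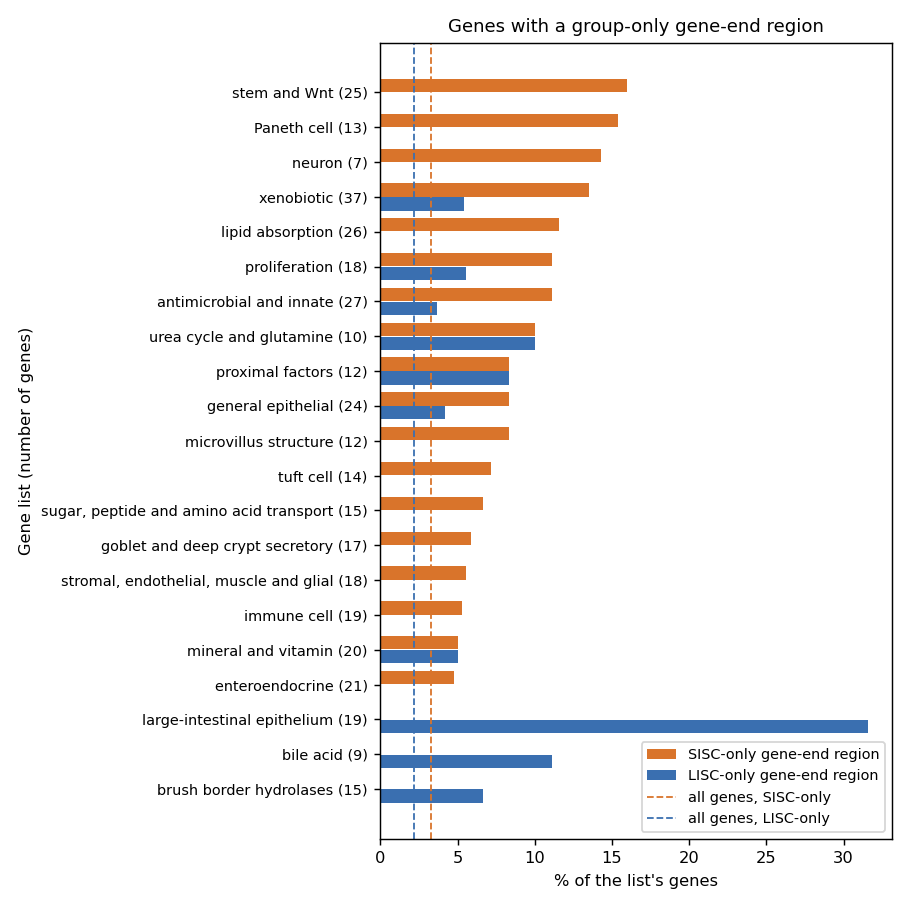
The percentage of genes in each of 21 lists with a SISC-only gene-end region (orange) and with a LISC-only one (blue); the number of genes stands in brackets and the dashed lines mark the shares over all genes, 3.31% and 2.21%. The stem and Wnt list has 16.0% and none, and the large-intestinal epithelial list none and 31.6%.

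The plot by list rests on few genes per bar. The exact 95% interval was 4.54% to 36.1% for the stem and Wnt list, 4.54% to 28.8% for the 5 of 37 detoxification genes and 2.45% to 30.2% for the 3 of 26 lipid genes. The lower bound of the lipid interval was under the 3.31% of all genes.

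Gene families chosen by name gave a wider view. Of 99 cytochromes P450, 8 (8.08%) had a SISC-only gene-end region and 3 a LISC-only one. Beside those above, they included Cyp2e1, which oxidises ethanol (101 and 26.6), Cyp24a1, which inactivates vitamin D (6.29 and 32.0), Cyp4f15 (12.6 and 17.1) and Cyp4a32 (20.9 and 7.80). The nearest LISC peak lay 219 bp from the region of Cyp24a1, 921 bp from that of Cyp4f15, 8484 bp from that of Cyp2e1 and 44070 bp from that of Cyp4a32. Of 21 apolipoproteins and fatty acid binding proteins, 3 had a SISC-only one and none a LISC-only one, namely Apoa4, Fabp1 and Apoc4, an apolipoprotein of circulating lipoproteins (6.82 and 6.86). Of 62 serpins, 5 had a SISC-only region and none a LISC-only one. These were the protease inhibitors Serpina10 (35.8 and 38.3), Serpina11 (11.9 and 38.6), Serpina9 (10.1 and 9.44), Serpinf2 (6.81 and 12.7) and Serpinb1a (6.81 and 9.56). A LISC peak lay 107 bp from the region of Serpinb1a and 497 bp from that of Serpina9. For the other serpin regions quoted, the gap was 5780 bp (Serpina11) to 13992 bp (Serpinf2). The conjugating and ester-cleaving enzymes of the Ugt, Sult, Gst and Ces families were counted together: 4 of 84 (4.76%) had a SISC-only region and 6 (7.14%) a LISC-only one. Solute carriers had 19 of 362, and 10 with a LISC-only region. At the 39 Hox genes, which set position along the body axis, both kinds were equally common. Hoxa2, Hoxb7, Hoxb8, Hoxc9, Hoxc12 and Hoxd10 had a SISC-only region, and 6 other Hox genes had a LISC-only one. The values of the Hox regions were low, from 4.37 (Hoxc12) to 7.47 (Hoxc9) in SISC replicate 1 and from 8.29 (the weaker of 2 regions at Hoxc9) to 17.2 (Hoxa2) in replicate 2. Hoxb7 and Hoxb8 share 1 region, 458 bp from a LISC peak, and the stronger region of Hoxc9 lay 184 bp from one. For the other Hox regions the gap was 782 bp (Hoxd10) to 5877 bp (Hoxc12). Among 1104 olfactory receptors no gene had a SISC-only gene-end region and 6 had a LISC-only one.

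Several of the regions with the highest mean percentiles lay at genes of no list. Lgals2, a sugar-binding galectin, had a region of 389 bp over its start, with 169 and 118 and a fold enrichment of 4.75 and 3.88. Pate6 (113 and 162), Tbx20, a T-box factor known from the heart (102 and 103), and Gimd1 (93.5 and 107) had regions over their starts. The nearest LISC peak was 1192 bp from the region of Lgals2, 218900 bp from that of Pate6, 6334 bp from that of Tbx20 and 53089 bp from that of Gimd1. Lmo3, a LIM-only transcriptional cofactor (106 and 94.5), and Dpyd, which degrades pyrimidines (121 and 83.6), had regions at their other end. A region with 128 and 166 lay near the end of 2610507B11Rik and the start of Rskr. The 12 highest were completed by those of Fam76a (80.7 and 118) and Rmc1 (116 and 83.8), the second of which was 221 bp from a LISC peak. Lgals2, Dpyd, 2610507B11Rik, Fam76a and Rmc1 also had a LISC region at a gene end, and Pate6, Tbx20, Gimd1, Lmo3 and Rskr had none. Of the 684 genes, 25 had more than 1 region, among them Ethe1 with 3, and Dcbld2, Gadl1, Smlr1, Nme8, Dnase1 and Nfasc with 2 each.

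Gene starts and other ends could be told apart for the 79.6% of genes with a RefSeq promoter sequence, which gives the strand. Of the 521 regions at such genes, 278 were at a start, 231 at the other end and 12 at both. The share at a start was 55.7% (exact 95% interval 51.3% to 60.0%), against 41.4% (36.2% to 46.8%) of LISC-only and 86.4% (85.8% to 87.1%) of regions called in all 4 libraries. Intervals treat regions as independent and cover counting error only. SISC-only gene-end regions were thus at starts less often than regions of all 4 libraries, with intervals that do not overlap. They covered the gene end itself in 227 cases (34.2%), lay inside the gene in 220 and outside it in 217, whereas 77.6% of the regions of all 4 libraries covered one. The regions of all 4 libraries were also wider, with a median of 1273.5 bp against 503.5 bp. The part of width in this difference was not tested.

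**Figure D3:**
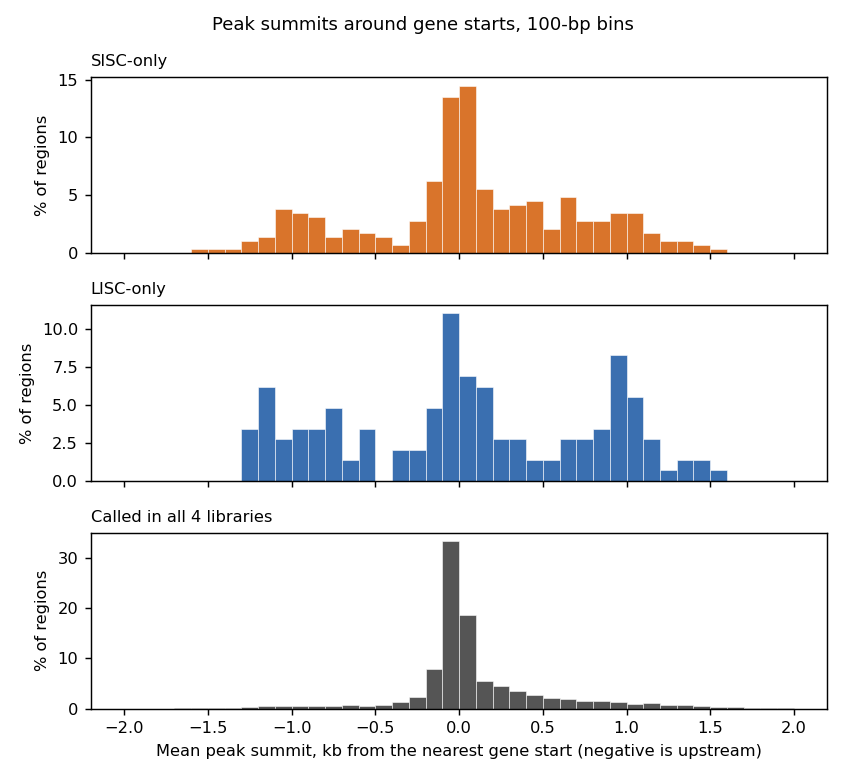
The position of the mean peak summit in kb from the nearest gene start (negative is upstream), in 100-bp bins, as a percentage of 290 SISC-only, 145 LISC-only and 9613 regions of all 4 libraries. The highest bin adjoins the start in all 3, but among LISC-only regions the next highest, with 8.28%, lies 900 to 1000 bp downstream.

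The plot of summits around starts shows where within the 1 kb these regions sat. Of the 290 SISC-only regions at a start, 81 (27.9%, 22.8% to 33.5%) had their summit within 100 bp of it, against 26 of 145 LISC-only regions (17.9%, 12.1% to 25.2%) and 51.9% of the regions of all 4 libraries. Another 52 lay from 100 to 500 bp downstream and 32 at the same distance upstream. The edge of the 1 kb window was not a natural break: the regions of Trim56 (25.6 and 14.1), Ankrd13c (6.23 and 6.79) and Zfp251 (16.3 and 19.5) lay 1000 bp from a gene end and were kept. Those of Exoc3l2 at 1001 bp (13.4 and 7.78), Rpusd2 at 1002 bp (11.9 and 10.8) and Psca at 1005 bp (18.9 and 26.0) were not.

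These regions were mostly weak peaks, in intervals narrower than those of regions called in all 4 libraries. Their −log10 q had a median of 11.9 in SISC replicate 1 (2.66 to 231) and 15.4 in replicate 2 (3.26 to 166), and their fold enrichment one of 3.64 and 3.72. The median within-list percentile was 20.0 and 30.0, against 24.5 and 32.5 for SISC-only regions farther than 1 kb from any gene end. LISC-only gene-end regions had medians of 33.1 and 30.6 within the LISC lists, and gene-end regions called in all 4 libraries had 87.3 and 88.4 within the SISC lists. Only 58 of the 664 (8.73%) were above the median peak in both SISC lists, a group that includes those of Olfm4, Cyp3a11, Ugt2a3 and Habp2. The median width was 503.5 bp, against 454 bp for SISC-only regions farther from gene ends and 478 bp for LISC-only gene-end regions. It was 1273.5 bp for gene-end regions of all 4 libraries, which join peaks of 4 lists rather than 2. With fewer calls to meet, the rule kept 1608 regions without SISC replicate 1 and 998 without LISC replicate 1. Applied to the 41721 strongest peaks of each list, it gave 507 genes, of which 67 are among the 684.

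**Figure D4:**
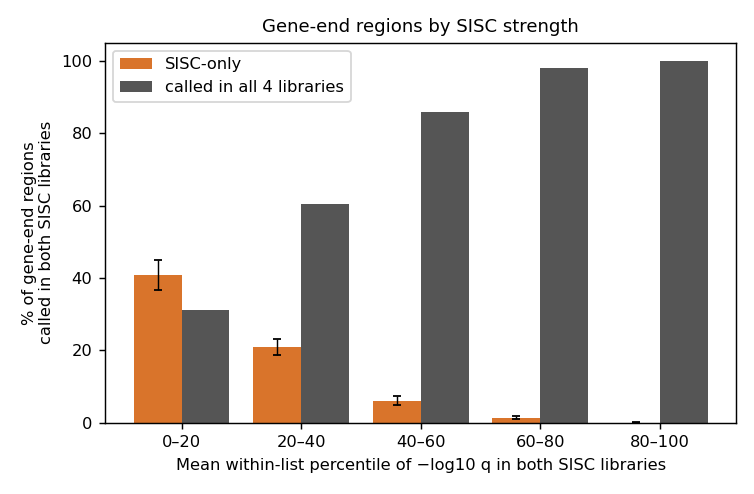
Of the gene-end regions called in both SISC libraries, the percentage that was SISC-only (orange, with exact 95% intervals) and called in all 4 libraries (grey), by the mean within-list percentile of −log10 q in the SISC libraries, where 100 is strongest. The SISC-only share goes from 40.8% in the weakest bin to 0.0573% in the strongest, while the share called in all 4 libraries goes from 31.2% to 99.9%.

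The plot by strength shows that the share without a LISC call followed the rank in SISC. Among 15017 gene-end regions called in both SISC libraries, 243 of the 596 in the weakest bin (percentiles 0 to 20) were SISC-only, and 5 of the 8721 in the strongest (80 to 100). A weak region can miss the calling threshold in a library of lower depth or enrichment, and the part of this in the results was not tested. The median −log10 q of a peak was 36.1 and 32.8 in the SISC lists, and 35.6 and 26.2 in the LISC lists. Distance to LISC peaks varied widely: the median gap was 3855 bp, 117 regions (17.6%) lay within 500 bp of a LISC peak and 292 (44.0%) more than 5 kb from one.

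For many genes the region was one of several. Of the 684 genes, 398 also had a LISC region at a gene end, and 286 (41.8%) had none. This count was 443 of 918 genes when peaks had to cover 50% of a region. In that setting a LISC peak covering less was not counted, so these genes may still hold one. Without SISC replicate 1 the count was 516 of 1585 genes. Among the 289 with a SISC-only region at a known start, 1.76% of 16457 genes of known strand, 204 had no LISC region within 1 kb of that start. The corresponding count of starts with a LISC-only region was 145 (0.881%). Genes with no LISC region within 1 kb of either end include Olfm4, Gata4, Apoa4, Fabp1, Rbp2, Reg1, Reg3b, Ugt2a3 and Cyp3a11. This status depends on the 1 kb limit. The nearest LISC peak lay 1174 bp from the region of Rbp2 and 1936 bp from that of Gata4. For the strongest region of each of the others, the gap was 4466 bp (Apoa4) to 62610 bp (Reg1).

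Regions farther than 1 kb from any gene end were not used by the rule. Of the 684 genes, 250 (36.5%, 32.9% to 40.3%) were the nearest gene to such a distal SISC-only region and 142 (20.8%, 17.8% to 24.0%) to a distal LISC-only one. For the 457 genes with a LISC-only gene-end region these shares were 30.2% (26.0% to 34.6%) and 43.1% (38.5% to 47.8%), and for genes with neither 22.0% and 22.9%. Counting gene-end regions as well, Tbx20 had 7 SISC-only regions nearest to it and no LISC-only one, and Gadl1 7 and 1. Tbx20 had 1 SISC-only gene-end region and Gadl1 2, so these counts are not of distal regions alone. Regions of 1 gene share their libraries and are not independent.

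The 1823 regions called in all 4 libraries nearest to these genes allowed 1 test over libraries. Their median within-list percentile was 64.5 and 67.7 in SISC replicates 1 and 2, and 62.8 and 62.0 in LISC replicates 1 and 2, so the groups did not overlap. The difference was 3.69 percentile points (SISC minus LISC; two-sided exact permutation test over libraries, p = 0.333, the smallest p that 2 against 2 allows). Over all 56633 such regions of the genome the medians were 64.0 and 68.2 in SISC, and 66.1 and 65.6 in LISC. The difference therefore could not be called at this sample size.

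Promoter sequence was compared in 300-base windows, from 250 before to 50 after each RefSeq start. In 177 windows of 165 genes, SISC-only regions and no others covered at least 150 bases; 133 of these genes are among the 684, and at the rest the region lies more than 1 kb from both annotated ends. Their median CpG ratio was 0.424, against 0.273 in 74 LISC-only windows, 0.778 in 11774 windows called in all 4 libraries and 0.199 in 7242 windows with no region. At a CpG ratio of 0.6 or more, 35.0% (28.0% to 42.5%) of the SISC-only windows were CpG-rich, against 13.5% (6.68% to 23.5%) of LISC-only windows and 75.3% of those called in all 4 libraries. In these windows SISC-only starts were CpG-richer than LISC-only starts and CpG-poorer than commonly open starts. The intervals did not overlap, but they treat windows as independent, although some genes gave several windows, and cover counting error only. No test over libraries was run on the CpG ratio. That of LISC-only windows was not recomputed under the other settings.

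**Figure D5:**
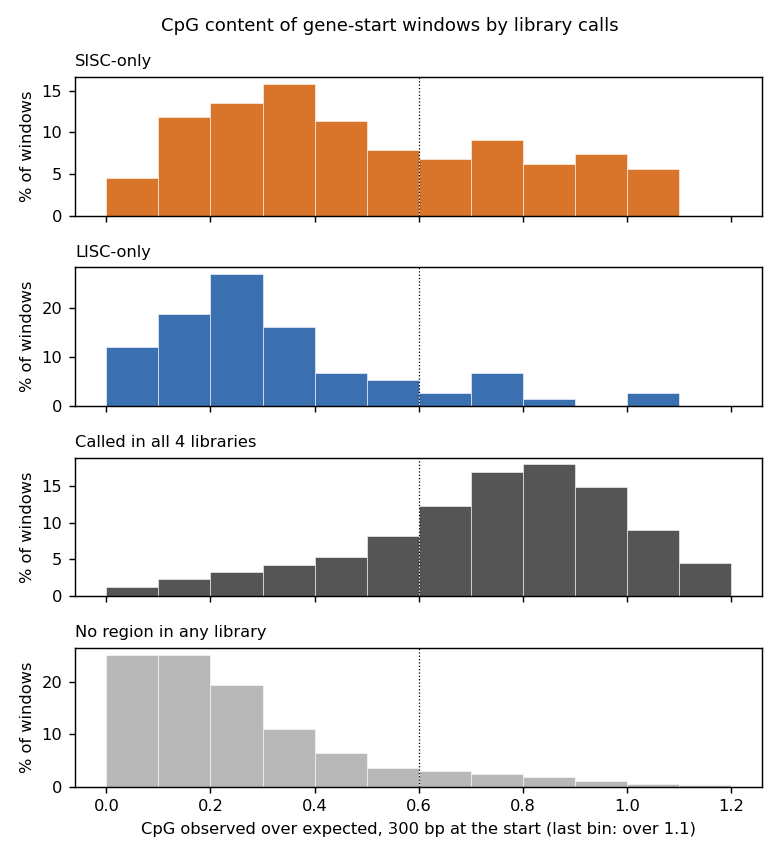
The CpG ratio (observed over expected) of 300-bp windows at gene starts, as a percentage of the 177 SISC-only windows, 74 LISC-only windows, 11774 windows called in all 4 libraries and 7242 with no region; the dotted line marks 0.6. SISC-only windows spread over both sides of the line, with a median of 0.424.

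The plot of CpG ratios shows that SISC-only windows were of both kinds. The CpG-poor ones, at 109 genes, include Olfm4, Lgals2, Fabp1, Rbp2, Apoa4, Reg1, Reg3b and Ugt2a3. The CpG-rich ones, at 56 genes, include Tbx20 and, named after their values were seen, Prima1 (0.857), which anchors acetylcholinesterase, the dopamine receptor gene Drd5 (1.02) and the developmental transcription factor genes Phox2a (0.804), Lhx1 (0.961), Otp (0.775) and Uncx (0.943). Those named after the fact are picked examples, and no theme among the 56 genes was tested. Their mean percentiles in both SISC libraries ran from 7.15 (Otp) to 62.8 (Prima1). A LISC region lay within 1 kb of the start of Phox2a. Otp and Uncx had a LISC region at a gene end, though not at the start. A SISC-only gene-end region lay at the annotated start of 51 of the 56 and 81 of the 109 genes. Of these, 47 of 51 CpG-rich and 74 of 81 CpG-poor genes had no LISC region within 1 kb of the start, and the median over genes of the mean percentile in both SISC libraries was 24.8 and 28.8.

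The motifs followed base composition in part. TATAAA was found on either strand in 16.4% of SISC-only windows (11.3% to 22.7%), 21.6% of LISC-only windows, 6.23% of those called in all 4 libraries and 12.7% of all 20085 windows. Between 40 and 20 bases before the start it stood in 5.65% of SISC-only windows (2.74% to 10.1%), 5.41% of LISC-only windows and 2.58% of all. The GC box GGGCGG was in 35.0% of SISC-only windows (28.0% to 42.5%), 17.6% of LISC-only windows (9.70% to 28.2%) and 47.0% of all. AGATAA stood in 11.9% (7.5% to 17.6%) of SISC-only windows, 6.76% (2.23% to 15.1%) of LISC-only windows and 9.57% of all, and TTTATNG in 13.0%, 17.6% and 9.49%. Windows with no region in any library held TATAAA in 23.2%, AGATAA in 16.2% and TTTATNG in 14.5%. Among CpG-poor windows, SISC-only ones held TATAAA in 21.7%, AGATAA in 16.5% and TTTATNG in 16.5%. All CpG-poor windows held them in 19.6%, 14.7% and 13.2%. The HNF4 letters CAAAGTCCA were rare, in 3 of 177 SISC-only windows, none of 74 LISC-only windows (exact upper bound 4.86%) and 0.463% of all. The HNF1 letters TTAATNATT were in 2.82%, 2.70% and 1.25%. For CCAAT, forkhead (TGTTTAC), AP-1 (TGANTCA), TCF/LEF (CTTTGAT), STAT (TTCNNNGAA) and CTCF (CCACNAGG) letters the intervals of SISC-only and LISC-only windows overlapped, as they did for every motif named here.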

How the data were processed

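The submitters' processing notes list MACS2 2.2.7.1, Bowtie2 2.3.4.1, cutadapt 3.4, bedtools and Picard, and the build mm10. No settings, Tn5 shift, duplicate handling or calling threshold are stated. The authors deposited 1 MACS2 peak list per library. Each peak carries the authors' fold enrichment (a ratio over local background), −log10 p, −log10 q and score. As these values vary with sequencing depth, they were used here only to describe or rank peaks within a list.

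Peaks sharing 1 bp or more were merged and set against protein-coding genes of RefSeq on GRCm38.p6, without exon structure. A distal region was given to the closest gene end up to 100 kb away. Shares have exact (Clopper-Pearson) 95% intervals. The regions, lists, families and motifs were chosen with earlier results of these data known. Named are list genes, genes of the 12 strongest regions by mean percentile, the 10 genes with 2 or more regions and most SISC-only regions nearest to them, up to 6 members in each of the 4 families with the highest shares, and the 3 regions on either side of the 1 kb limit. Exceptions are marked. Counting was tested on simulated regions and checked against bedtools 2.31.1. Calculations used scipy 1.17.1, pandas 2.3.3, numpy 2.4.6 and matplotlib 3.10.9 under Python 3.11.15.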

Additional observations from a re-analysis of the deposited data

Results flagged for a closer look

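The X chromosome was outside the comparison. It held 19 SISC-only regions within 1 kb of a gene end, among 215 SISC-only regions on that chromosome, and 13 LISC-only gene-end regions. Those of the 19 with the highest mean −log10 q were at Tceal5 (18.6 and 47.3 in SISC replicates 1 and 2) and Ftsj1 (24.3 and 29.3), both named after their values were seen. They drew attention because they are a signal in data that no count above includes.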

How the results depend on the processing

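With 41721 peaks kept per list, the strongest, 507 genes had a SISC-only gene-end region, of which 67 are among the 684, and 22 of the 66 named genes kept theirs. The share at gene ends was then 10.1% of SISC-only, 5.27% of LISC-only and 37.5% of regions called in all libraries, 69.7% were at a start, the median width was 845.5 bp, the median percentiles 59.6 and 64.8 and the median CpG ratio 0.574. At equal list length, the SISC-only and all-library shares were 7.73% and 24.9%, the width 552 bp and the SISC replicate 2 percentile 33.6. When peaks had to cover 50% of a region, 443 of 918 genes had no LISC region counted at an end. The shares were then 8.07%, 4.12% and 27.5%, the start share 60.5% and the width 637 bp. The percentiles were 30.2 and 39.99 and the CpG ratio 0.528. With summit windows the shares were 8.20%, 4.92% and 23.4% and the SISC replicate 1 percentile 22.2, which was 22.4 by fold enrichment. Within 500 bp of a gene end there were 452 genes, shares of 4.79%, 2.27% and 21.8% and a width of 540 bp. Within 2500 bp there were 1272 regions, 1347 genes, shares of 13.6%, 8.24% and 30.8%, a width of 454 bp and 58 list genes. With no LISC peak allowed within 500 bp, the SISC-only share was 5.86% and 56 of 66 named genes kept a region. The cause of these shifts was not tested beyond the change in the peaks or window used.

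Leaving out 1 library at a time gave 907 to 1608 regions at 928 to 1585 genes, with 1608 and 1585 without SISC replicate 1 and 998 and 1045 without LISC replicate 1. Genes with no LISC region at an end then numbered 328 to 516, and list genes 37 to 49, both highest without SISC replicate 1. The shares at gene ends were 7.66% to 7.95% for SISC-only, 4.00% to 4.89% for LISC-only and 23.2% to 23.9% for all-library regions, the start share 53.7% to 62.2%, the width 282 to 499.5 bp, the SISC replicate 1 and 2 percentiles 15.1 to 22.6 and 17.9 to 32.7, and the CpG ratio 0.407 to 0.487. In each setting tried, a larger share of SISC-only than of LISC-only regions lay at gene ends, and the rank difference of neighbouring regions kept its sign (0.975 to 4.27 points). Same-numbered replicates did not deviate together in rank (r = 0.00809 over 56633 regions), and the main test does not take the numbers as pairs. That correlation cannot tell whether same-numbered libraries share animals. Y-chromosome peaks were called in replicate 1 of both groups and in neither replicate 2. With the replicate number as a block the rank difference was 3.69 points (exact p = 0.5, the smallest possible with 2 pairs). Unknown depth limits every statement that a LISC peak was missing.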
